A study of Mus musculus with 6 samples.

Results

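The 40 genes described here encode the machinery that builds the primary cilium and moves cargo along it, and they were taken by gene symbol as a list of intraflagellar transport, BBSome, cilium motor, small GTPase, transition zone and basal body genes, a rule that uses no measured value. All 40 were among the 18169 genes of the table. Hepa 1-6, a line derived from a mouse hepatoma and labelled as mouse hepatocyte, was treated with Shh or with vehicle, and RNA selected on oligo(dT) beads was sequenced from 3 libraries per group. The labels give no genotype change, dose or duration for either group. The paper's legend for these cells gives 3 mice per group. Its statistics section states at least 3 independent repeats for quantitative measurements, without naming sequencing. No source says that the libraries of a group were separate cultures, so all p-values below rest on a spread between libraries that may be technical.

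The primary cilium is a single antenna that projects from a mother centriole. Intraflagellar transport (IFT) carries cargo along it: IFT-B trains are drawn to the tip by the heterotrimeric kinesin-2 motor, and IFT-A trains return with the dynein-2 motor. The BBSome, an octameric coat, takes membrane proteins out of the cilium, and the transition zone at the base works as a gate. In vertebrates the Hedgehog receptor Patched leaves the cilium and Smoothened enters it when Shh binds, so that these genes are known as components that Hedgehog reception depends on. In liver, cholangiocytes carry a primary cilium, whereas hepatocytes largely lack one.

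The RFX transcription factors are known regulators of cilium genes and bind the X-box, an inverted repeat made of a left and a right arm of 6 letters each. The X-box was searched for on both strands as the left arm GTNRCC and the right arm RGYAAC, with up to 3 letters between them. Here N is any letter, R is A or G, and Y is C or T. A match therefore need not be a perfect inverted repeat. The search covered the 300 bases around each RefSeq start site (250 before and 50 after, mouse build GRCm38.p6). A window was at hand for 36 of the 40 genes, and 6 of them (16.7%) held an X-box, against 1.75% of all 27025 genes with a window. The 6 windows are shown because they carry this difference, with the X-box in capitals, and that of *Arl3*, the member with the highest level, is shown beside them as a window with no match. Each is written 5′ to 3′ on the strand of its gene.
Ift57 (chr16:49699044-49699343, plus strand): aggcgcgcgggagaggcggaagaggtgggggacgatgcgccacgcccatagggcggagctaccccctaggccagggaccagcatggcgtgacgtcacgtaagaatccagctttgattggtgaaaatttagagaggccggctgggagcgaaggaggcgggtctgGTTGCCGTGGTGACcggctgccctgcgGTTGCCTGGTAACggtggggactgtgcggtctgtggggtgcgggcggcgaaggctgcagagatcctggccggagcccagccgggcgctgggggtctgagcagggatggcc
Kif17 (chr4:138262001-138262300, plus strand): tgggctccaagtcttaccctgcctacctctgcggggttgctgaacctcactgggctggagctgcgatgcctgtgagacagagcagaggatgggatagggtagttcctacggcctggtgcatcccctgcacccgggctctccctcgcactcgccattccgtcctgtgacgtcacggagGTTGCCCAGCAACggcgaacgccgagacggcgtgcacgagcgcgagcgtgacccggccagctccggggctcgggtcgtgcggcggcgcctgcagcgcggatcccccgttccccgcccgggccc
Tctn2 (chr5:124598499-124598798, plus strand): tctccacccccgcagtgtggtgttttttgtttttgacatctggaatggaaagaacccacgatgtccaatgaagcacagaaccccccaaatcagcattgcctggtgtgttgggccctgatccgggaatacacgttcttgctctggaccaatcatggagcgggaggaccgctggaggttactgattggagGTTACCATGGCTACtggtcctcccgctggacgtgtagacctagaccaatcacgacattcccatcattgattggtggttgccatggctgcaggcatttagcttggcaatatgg
Bbs1 (chr19:4906578-4906877, minus strand): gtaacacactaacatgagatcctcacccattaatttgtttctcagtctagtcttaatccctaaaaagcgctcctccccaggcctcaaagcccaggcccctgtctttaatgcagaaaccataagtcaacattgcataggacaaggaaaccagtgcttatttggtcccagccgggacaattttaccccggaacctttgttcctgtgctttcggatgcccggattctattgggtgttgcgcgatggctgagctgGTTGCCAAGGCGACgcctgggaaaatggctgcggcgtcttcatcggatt
Tctn3 (chr19:40612182-40612481, minus strand): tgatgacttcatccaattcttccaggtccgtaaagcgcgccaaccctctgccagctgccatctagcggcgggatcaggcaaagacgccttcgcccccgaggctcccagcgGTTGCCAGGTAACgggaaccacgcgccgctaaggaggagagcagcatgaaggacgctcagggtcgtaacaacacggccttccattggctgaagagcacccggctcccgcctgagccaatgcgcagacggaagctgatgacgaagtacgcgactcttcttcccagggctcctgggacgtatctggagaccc
Tctn1 (chr5:122264411-122264710, minus strand): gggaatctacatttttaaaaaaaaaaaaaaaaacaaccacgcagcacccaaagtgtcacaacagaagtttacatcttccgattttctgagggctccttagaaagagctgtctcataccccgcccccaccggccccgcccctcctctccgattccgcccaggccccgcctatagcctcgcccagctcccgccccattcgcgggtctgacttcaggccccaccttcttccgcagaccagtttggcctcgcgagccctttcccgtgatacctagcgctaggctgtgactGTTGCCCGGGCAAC
Arl3 (chr19:46573133-46573432, minus strand): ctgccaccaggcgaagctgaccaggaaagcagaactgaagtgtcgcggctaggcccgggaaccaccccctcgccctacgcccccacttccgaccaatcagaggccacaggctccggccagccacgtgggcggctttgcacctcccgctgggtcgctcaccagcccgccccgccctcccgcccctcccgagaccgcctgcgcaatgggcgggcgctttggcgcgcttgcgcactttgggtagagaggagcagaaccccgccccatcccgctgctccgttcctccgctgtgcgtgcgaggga

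*Ift57* held 2 X-boxes, which began 87 and 60 bases before the start site. The match began 73 bases before the start in *Kif17*, 62 before it in *Tctn2* and 140 before it in *Tctn3*, and it lay after the start in *Bbs1* (by 1 base) and *Tctn1* (by 36 bases). The share was 9.76% among 41 other primary cilium genes with a window (*Ahi1*, *B9d2*, *Lztfl1* and *Tmem237*). It was 1.9% among the 9831 genes with a window that passed the expression filter and 1.84% among 4463 genes that did not, so the share was alike on both sides of the filter. Among the cilium genes, 4 of the 5 with the lowest level held one (*Bbs1*, *Kif17*, *Tctn2* and *Ift57*, without *Mks1*), against 2 of the other 31. This split was chosen after the levels had been seen and is a description of a few genes, and nothing about the binding of a factor follows from a match or its lack. The windows of the members held a median of 22 CpG dinucleotides, against 7 over all 32851 windows. The second value includes windows of genes that did not pass the expression filter, and no median was taken for those that did. Whether the difference is particular to cilium genes was therefore not tested.

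The genes for the RFX factors themselves ranged from *Rfx8*, with 0 to 2 counts per library, to *Rfx1*. *Rfx1*, the highest of the 7 in the table, was at 7.66 ± 0.515 FPKM (SD, n = 3) in vehicle and 7.95 ± 0.386 in Shh. FPKM counts fragments relative to transcript length and library total. *Rfx3*, which is known for its part in ciliogenesis, was at 0.39 ± 0.04 FPKM in vehicle and 0.467 ± 0.0321 in Shh, with a log2 fold change of 0.25 (SE 0.13, adjusted p = 0.522 from edgeR). Of the 5 tested, 0 passed at an adjusted p under 0.05. *Foxj1*, the regulator of motile cilia, had 0 to 4 counts per library.

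The counts summed to 20253781 to 20335463 per library, so depth was even. On a scale where sampling noise alone gives about 1 (the chi-square over its degrees of freedom), vehicle pairs were 1.70 to 2.30 apart and Shh pairs 4.08 to 9.13. Shh replicate 2 stood apart, at 9.24 to 11.5 from the vehicle libraries, and results that rest on it are given with and without it. Of the hepatocyte markers, *Alb* (494 FPKM over all libraries), *Afp* and *Hnf4a* were abundant, while *Ttr* was at 0.49 and *Serpina1a* at 0.03 FPKM. The cholangiocyte markers *Krt7* (99.1 FPKM), *Spp1* (359) and *Sox9* (18.1) were abundant too, with *Cftr* near 0 at 0.0133 FPKM. The label was therefore borne out by some defining markers and not by others. The summed level of the 7 cholangiocyte markers was 486 to 509 FPKM in vehicle and 482 to 514 in Shh, that of the 10 hepatocyte markers was 1113 to 1132 in vehicle and 1083 to 1130 in Shh, and the 6 endothelial markers summed to 0.42 to 0.74 in vehicle and 0.38 to 0.88 in Shh. The 7 stellate and fibroblast markers summed to 496 to 523 FPKM in vehicle and 498 to 550 in Shh, nearly all of it from *Dcn*, with *Lrat*, *Reln* and *Pdgfrb* near 0. The 5 macrophage markers in the table summed to 33.0 to 33.9 FPKM in vehicle and 29.8 to 32.9 in Shh, mostly *Cd14* and *Cd68*, with *Ptprc* at 0.0983 and *Adgre1* at 0.045. These sums hide differences between libraries. Shh replicate 1 had a count for 16269 genes, against 15816 to 15936 in the others. *Ptprc* had 28 counts in Shh replicate 1, against 3 to 8 in the others. *Col1a1* had 440 there, against 151 to 318, and *Acta2* 188.84, against 69.03 to 148.49. *Cd14* was lowest there, at 615 counts, and *Dcn* was not highest there. The part of these markers in the results below was not tested.

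Most of the machinery was expressed. On the deposited FPKM scale, by which levels are compared between genes here, 31 of the 40 had a mean level of at least 1. Of all 18169 genes, 10475 reached that level. The median over the 40 was 2.87 FPKM, against 2.85 over all genes of the table. The levels ranged from 60.8 FPKM for *Arl3* to near 0 for 4 genes. Members of the same complex were far apart in FPKM, although their proteins are held together in 1 particle. These gaps depend on the transcript lengths that FPKM divides by. *Ift46* (3448 bases) had 4251.05 estimated counts over all libraries and *Ift27* (941 bases) 3248, whereas their levels were 10.1 and 28.3 FPKM. *Ift57* was the lowest of the 40 on both scales.

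**Figure D1:**
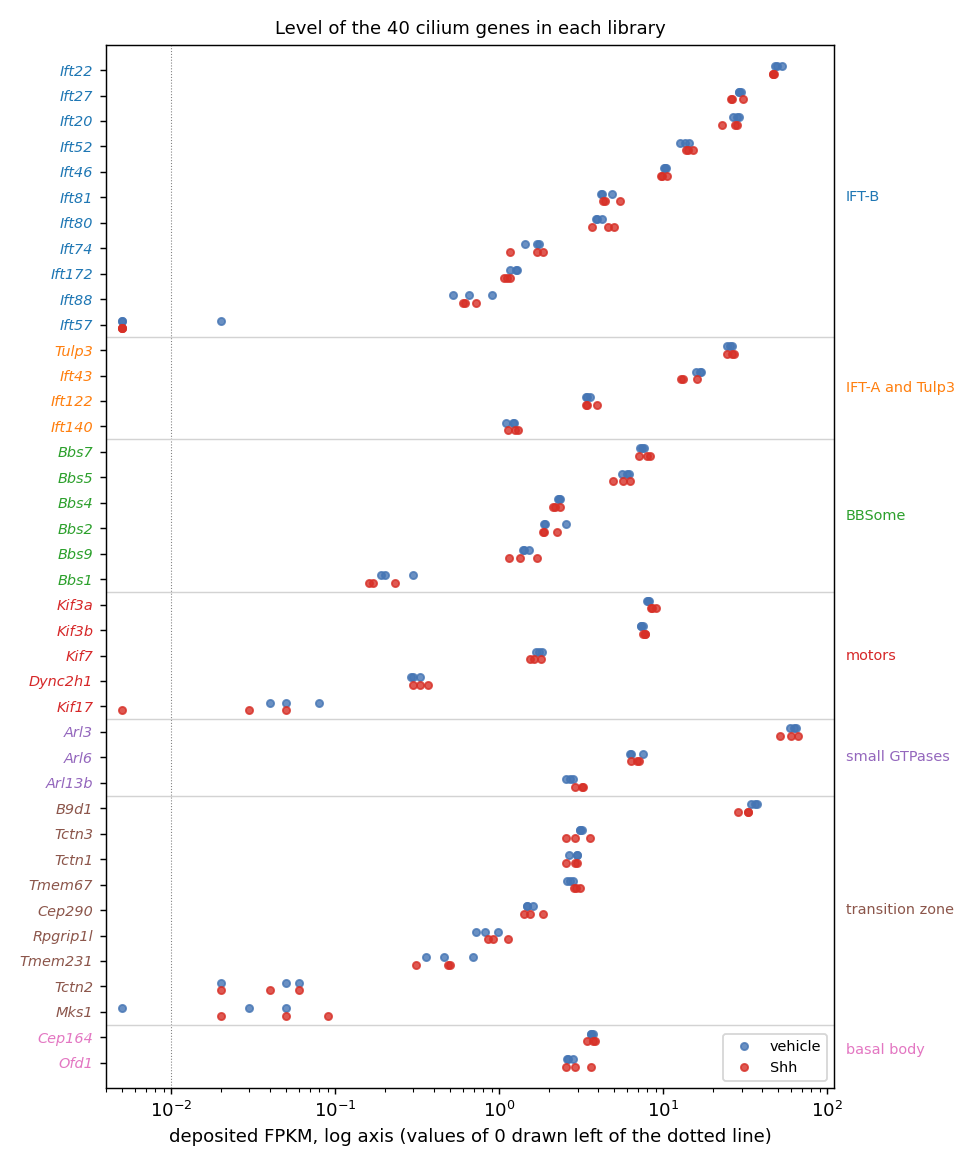
Level of each of the 40 genes in the 3 vehicle (blue) and 3 Shh (red) libraries, in deposited FPKM on a log axis, grouped by role and ordered by mean level, with values of 0 drawn left of the dotted line. *Arl3*, *Ift22* and *B9d1* sit highest, and *Ift57*, *Mks1*, *Tctn2* and *Kif17* lie below 0.1 FPKM in all 6 libraries.

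Among the IFT-B genes, *Ift22*, which encodes a Rab-like GTPase of the IFT-B core, averaged 48.6 FPKM over the 6 libraries, followed by *Ift27* (28.3), another Rab-like subunit, *Ift20* (27.0), which also works at the Golgi, *Ift52* (13.9) and *Ift46* (10.1). *Ift81* (4.57) and *Ift74* (1.60), whose proteins form a tubulin-binding pair, *Ift80* (4.23), *Ift172* (1.17) and *Ift88* (0.668), a core subunit whose loss abolishes cilia, were lower. *Ift27* was at 29.1 ± 0.413 FPKM (SD, n = 3) and *Ift20* at 27.8 ± 1.16 in vehicle, where all 3 values of *Ift27* were above those of *Ift20*, and their Shh values, 27.6 ± 2.75 and 26.2 ± 2.87, overlapped. The eleventh subunit gene, *Ift57*, had 1 count in vehicle replicate 1 and 0 in the other 5 libraries.

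In IFT-A, *Ift43* averaged 15.3 FPKM, *Ift122* 3.52 and *Ift140* 1.21. *Tulp3*, whose protein links IFT-A to membrane cargo such as the Hedgehog repressor Gpr161, was at 25.6 FPKM. In the BBSome, *Bbs7* (7.60) and *Bbs5* (5.77) led, *Bbs4* (2.26), *Bbs2* (2.05) and *Bbs9* (1.42) followed, and *Bbs1* was lowest at 0.208 FPKM, on 19.04 to 33.72 estimated counts per library. Of the motors, *Kif3a* (8.36) and *Kif3b* (7.53), which encode the paired motor subunits of kinesin-2, were the highest and close to each other. *Kif7*, a kinesin that regulates Gli proteins at the cilium tip, was at 1.70 FPKM, and *Dync2h1*, the heavy chain of dynein-2, at 0.32.

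*Arl3* (60.8 FPKM), a GTPase that releases lipidated cargo inside the cilium, was 1 of 3 small GTPase genes, with *Arl6* (6.76), which recruits the BBSome to membranes, and *Arl13b* (2.89), which activates *Arl3* as an exchange factor. In the transition zone *B9d1*, a B9-domain subunit of the tectonic complex, was at 33.6 FPKM, more than the other 8 genes of that group. *Tctn3* (3.07), *Tctn1* (2.84) and *Tmem67* (2.83) came next. In vehicle *Tctn3* (3.09 to 3.20) was above *Tctn1* (2.65 to 2.98) and *Tmem67* (2.59 to 2.83), which overlapped each other, and in Shh the 3 genes overlapped. *Cep290* (1.56), *Rpgrip1l* (0.903) and *Tmem231* (0.468) were lower. Of the basal body genes, *Cep164*, which is needed for docking at the membrane, was at 3.67 and *Ofd1* at 2.85 FPKM.

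A total of 4 genes were close to the detection limit and failed the expression filter. At this depth 3 counts in a library come to 0.148 CPM, which are counts scaled to a common library total and below that limit absence and a low level cannot be told apart. This limit covers counting error only. *Ift57* had 1 count in all 6 libraries together. *Mks1*, whose protein is a B9-domain partner of B9d1 in the transition zone, had 1.55, 0 and 1.65 estimated counts in vehicle and 1, 1 and 3 in Shh. *Tctn2*, a tectonic like *Tctn1* and *Tctn3*, had 1, 3 and 3 counts in vehicle and 2, 3 and 1 in Shh. *Kif17*, a homodimeric kinesin-2, had 6, 3 and 3 counts in vehicle and 2, 3 and 0 in Shh. No fold is given for these genes, since the vehicle and Shh libraries were at or near this limit. *Kif17* did not overlap between the groups in CPM (0.299, 0.149 and 0.148 against 0.099, 0.144 and 0), and with CPM from raw totals they did.

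For 3 of these 4 genes a neighbour on the chromosome was well expressed. Neighbours were taken in the order of those protein-coding RefSeq genes that have a row in the table. Genes without a row were passed over, so a nearer gene may lie between. *Tctn2* lies between *Gtf2h3* (11.2 to 12.6 FPKM over the 6 libraries) and *Atp6v0a2* (17.8 to 19.9). *Kif17* lies between *Sh2d5* (1.35 to 1.83) and *Ddost* (86.6 to 96.3). *Ift57* has *Cd47* (18.3 to 20.3) on the side of higher coordinates and *Gm4802* (0 to 0.25) on the other. *Mks1* lies between *Lpo* (0 to 0.04) and *Olfr464* (0 to 0.05). Low values of this kind also occurred outside the list, since *Ttc21b*, *Dync2li1* and *Nphp4*, the untested ones of 45 other primary cilium genes, were at 0.00667, 0.0133 and 0.005 FPKM.

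The design asks which genes differ between Shh and vehicle. Of the 40 genes 36 passed the expression filter, and 0 were called at an adjusted p under 0.05 by edgeR's quasi-likelihood test, where 0 of all 12286 tested genes (0%) were called. At an unadjusted p under 0.05, 1 gene was higher with Shh (*Arl13b*) and 3 were lower (*B9d1*, *Ift43* and *Ift22*), a share of 11.1% of the 36, near the 10.4% of all tested genes at that p (4.83% higher and 5.56% lower). DESeq2 called 0 of the 36 at an adjusted p under 0.05, with *Ift43* and *B9d1* at an unadjusted p under 0.05, as were 814 of all 12286 genes. Without Shh replicate 2, *Kif3a* was higher and *B9d1* lower at that p in edgeR, where 772 of 12453 genes reached it. In bulk RNA, fewer cells of a type and less RNA per cell cannot be told apart, so all these values are means over the culture. The median log2 fold change of the 36 was -0.06, against 0.0028 over all tested genes, with 23 below 0 and 13 above, and it was -0.03 without Shh replicate 2 and -0.02 without vehicle replicate 2. In each library the median level of the 36 relative to the vehicle mean was -0.03, 0.01 and 0.02 in vehicle and -0.04, -0.01 and -0.01 in Shh on the log2(CPM + 0.5) scale, so the groups overlapped. For 34 of the 36 the interval of 2 SE on either side of the log2 fold change stayed inside a 1.5-fold change in either direction, the exceptions being *Bbs1* and *Tmem231*, which had few counts.

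**Figure D2:**
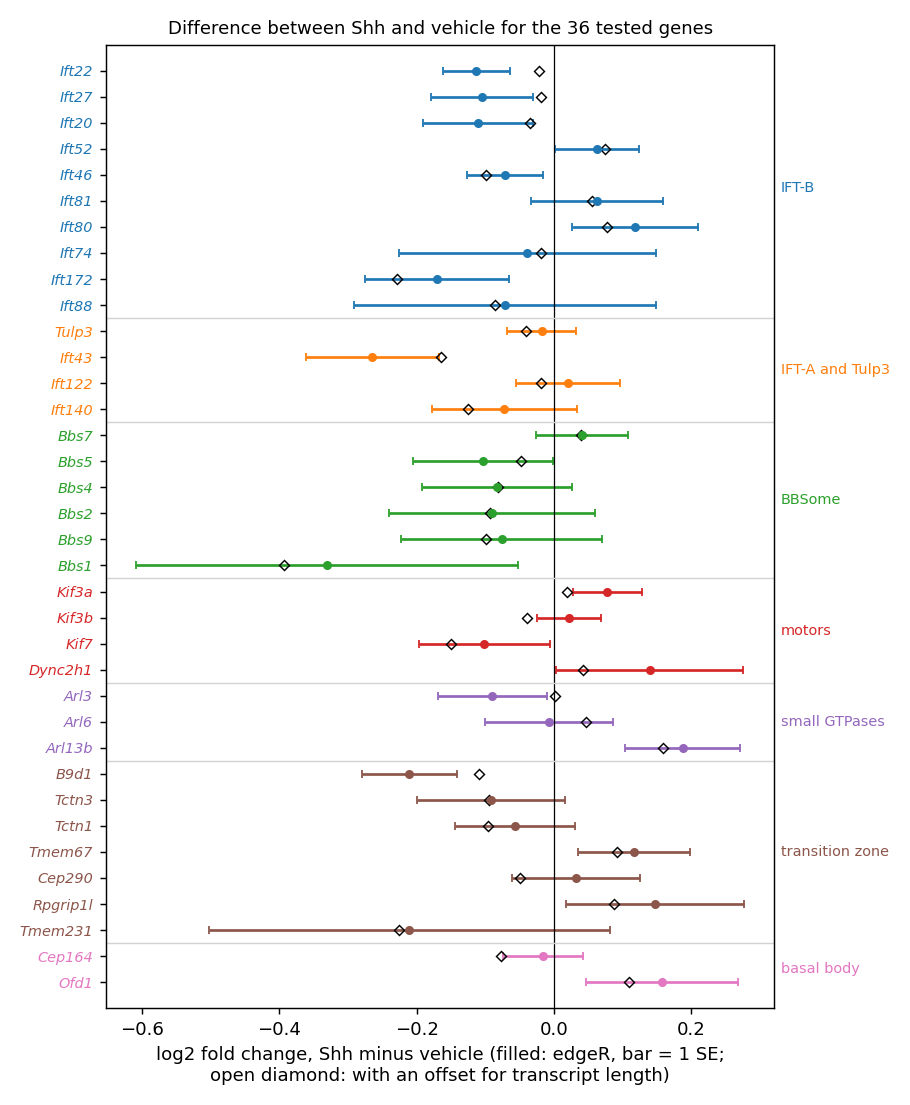
Log2 fold change of Shh minus vehicle for the 36 tested genes, grouped by role, with a bar of 1 SE and an open diamond for the value with an offset for transcript length. The 3 lower genes *B9d1*, *Ift43* and *Ift22* lie at -0.21, -0.26 and -0.11, and *Arl13b* lies at 0.19.

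*B9d1* (NCBI gene 27078) had the smallest p of the 36. Its values were 26.5, 28.3 and 27.7 CPM in vehicle and 25.2, 21.4 and 24.8 CPM in Shh, as CPM normalized by the trimmed mean of M values (TMM). All 3 Shh libraries were below all 3 vehicle libraries, and Shh replicate 2 was the lowest. The log2 fold change was -0.21 (SE 0.070, adjusted p = 0.469 from edgeR), and without Shh replicate 2 it was -0.14. *Tmem67*, which encodes the transmembrane protein meckelin, was at 9.03, 8.92 and 9.60 CPM in vehicle and 9.95, 10.3 and 9.67 CPM in Shh. The groups did not overlap there either, in the other direction, though vehicle replicate 3 and Shh replicate 3 were close. Its log2 fold change was 0.12 (SE 0.082, adjusted p = 0.607 from edgeR). The other 5 tested transition zone genes ranged from -0.21 (*Tmem231*) to 0.15 (*Rpgrip1l*), and neither of these separated the groups.

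For IFT-B the largest contrast relative to its error was in *Ift22* (NCBI gene 67286), at 48.6, 46.0 and 44.9 CPM in vehicle and 43.3, 42.1 and 43.6 CPM in Shh. The Shh values were all below those of vehicle and lay closer together than the vehicle values did. The log2 fold change was -0.11 (SE 0.049, adjusted p = 0.473 from edgeR). *Ift172*, which encodes the largest IFT-B subunit, was at 6.29, 6.83 and 6.92 CPM in vehicle and 5.99, 5.59 and 6.23 CPM in Shh. Vehicle replicate 1 and Shh replicate 3 nearly touched, and with CPM from raw totals the groups overlapped. Its log2 fold change was -0.17 (SE 0.11, adjusted p = 0.563 from edgeR). Of the 10 tested IFT-B genes 7 were below 0 and 3 above, with a median of -0.07.

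*Ift43* (NCBI gene 76411), a small subunit of IFT-A, was at 13.1, 12.2 and 12.8 CPM in vehicle and 12.2, 9.49 and 10.0 CPM in Shh. Shh replicate 1 was within the vehicle range, just above vehicle replicate 2, while the other Shh libraries were below it. The log2 fold change was -0.26 (SE 0.096, adjusted p = 0.469 from edgeR). Without Shh replicate 1, the library nearest to vehicle, *Ift43* alone among the 36 passed at an adjusted p of 0.0487 from edgeR with a log2 fold change of -0.38, a setting in which 195 of 12391 genes were called, and without Shh replicate 2 it was at -0.19. *Ift140*, the next IFT-A gene by p, was at -0.07 (SE 0.11), and the 4 genes of that group with *Tulp3* had a median of -0.04.

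Of the small GTPases, *Arl13b* (NCBI gene 68146) was at 8.93, 9.56 and 9.84 CPM in vehicle and 10.2, 11.08 and 11.04 CPM in Shh. All Shh libraries were above all vehicle libraries. The log2 fold change was 0.19 (SE 0.083, adjusted p = 0.477 from edgeR), and it stayed at 0.16 without Shh replicate 2. *Arl3* was at 56.7, 54.9 and 52.2 CPM in vehicle and 52.8, 43.9 and 57.3 CPM in Shh, where Shh replicate 2 was the lowest and Shh replicate 3 the highest of the 6. Its log2 fold change was -0.09 (SE 0.079, adjusted p = 0.690 from edgeR), and it turned to 0.01 without Shh replicate 2.

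**Figure D3:**
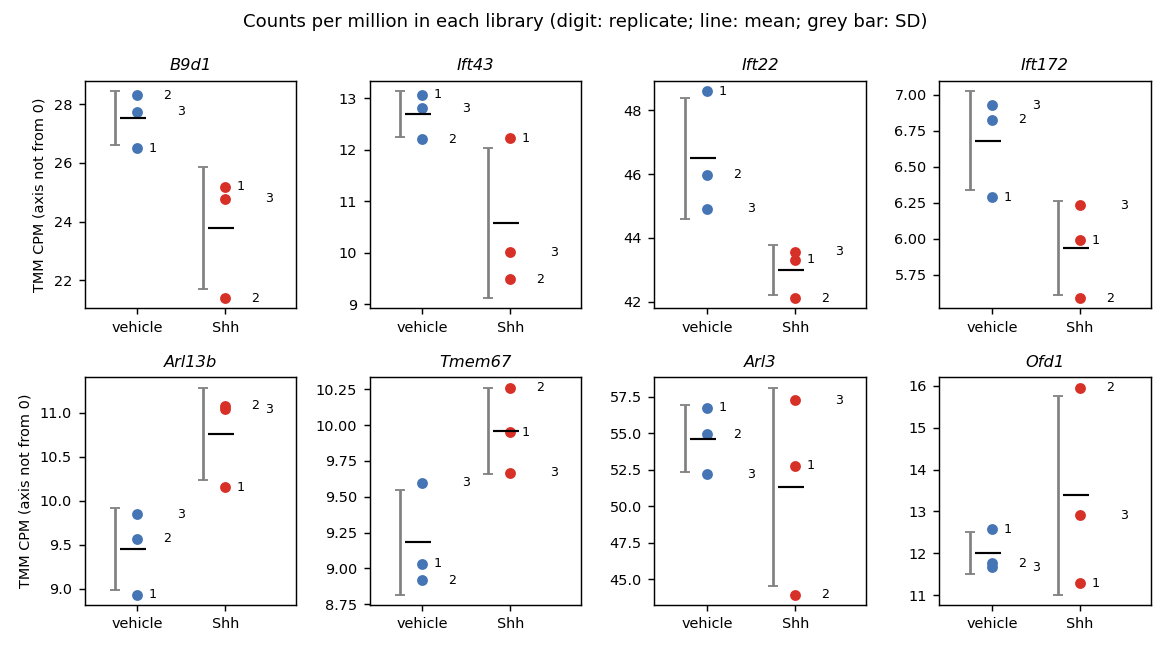
Level in TMM-normalized CPM of 8 genes in each library, with digits for the replicate, a line for the mean and a grey bar for the SD of the 3 libraries, on axes that do not start at 0. *B9d1*, *Ift22* and *Ift172* are lower and *Arl13b* and *Tmem67* higher in all 3 Shh libraries, and Shh replicate 2 is the lowest library for *B9d1*, *Ift43*, *Ift22*, *Ift172* and *Arl3* and the highest for *Arl13b*, *Tmem67* and *Ofd1*, and so the extreme library for all 8.

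The motors, the BBSome and the basal body genes held no gene at an unadjusted p under 0.05. *Kif3a* was at 44.3, 43.4 and 45.0 CPM in vehicle and 46.5, 44.8 and 48.9 CPM in Shh, where Shh replicate 2 fell within the vehicle range. The log2 fold change was 0.08 (SE 0.050, adjusted p = 0.572 from edgeR). *Kif7* was at -0.10 (SE 0.095), and the 4 tested motors had a median of 0.05. *Ofd1*, which encodes a protein of the distal centriole, was at 12.6, 11.8 and 11.7 CPM in vehicle and 11.3, 15.9 and 12.9 CPM in Shh, so that Shh replicate 2 was far above the rest and Shh replicate 1 the lowest of the 6. Its log2 fold change of 0.16 (SE 0.11, adjusted p = 0.608 from edgeR) became 0.01 without Shh replicate 2. *Cep164* was at -0.02 (SE 0.058). *Bbs1* was at 1.05, 1.15 and 1.68 CPM in vehicle and 0.941, 1.21 and 0.932 CPM in Shh, with overlap, and its log2 fold change of -0.33 carried an SE of 0.28. *Bbs5* followed at -0.10 (SE 0.10), and 5 of the 6 BBSome genes were below 0 with a median of -0.09.

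Counted over the 36, 2 genes had Shh values above all vehicle values and 3 had Shh values below them. Over all tested genes this held for 6.79% higher and 8.67% lower, so neither count stood out from the table. With CPM from raw totals the counts were 3 higher and 2 lower, since *Kif3a* then separated the groups and *Ift172* did not.

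The difference between groups moved with transcript length, as recovered from the deposited counts and FPKM. *B9d1*, *Ift43* and *Ift22* are short, at 761, 759 and 921 bases, whereas *Arl13b* has 3494. All 8 members under 1500 bases, a limit set after the values had been seen, were lower with Shh by the sign of the log2 fold change, the median being -0.11. Over the whole table, of the 2227 tested genes under that length 83.3% were below 0 with a median of -0.09, so the short cilium genes were near the short genes at large. The 28 longer members had a median of -0.02, with 13 above 0, while 58.8% of 9982 longer genes were above 0 with a median of 0.02. By library, the 8 short members had a median relative to the vehicle mean of -0.06, -0.26 and -0.04 in the Shh libraries in order of their numbers, against 0.016, -0.0034 and 0.013 in the vehicle libraries. Shh replicate 2 was the lowest, and without it the median log2 fold change of the 8 was -0.07. With an offset for length in the fit, *B9d1* was at -0.11, *Ift43* at -0.16, *Ift22* at -0.02 and *Arl13b* at 0.16, and 0 of the 36 stayed at an unadjusted p under 0.05, which 706 of 12209 genes reached in that fit. The part of length in these differences was not tested beyond this fit.

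**Figure D4:**
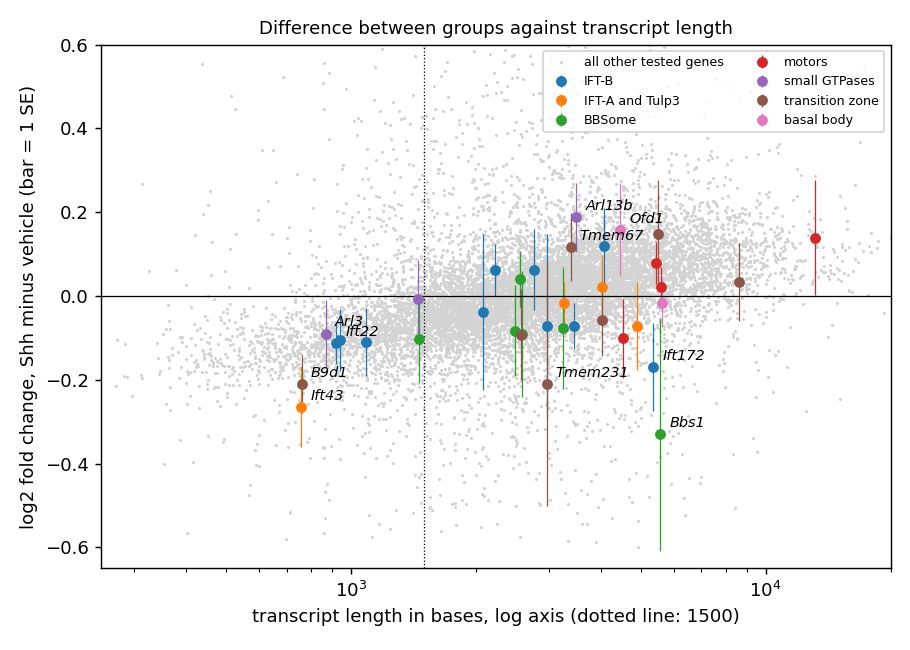
Log2 fold change of Shh minus vehicle against transcript length in bases on a log axis, for the 36 genes colored by role with a bar of 1 SE and for the other tested genes in grey, with genes beyond the vertical limits not drawn. The 8 members left of the dotted line at 1500 bases lie below 0, as do 83.3% of all tested genes there.

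Of 45 other listed primary cilium genes 42 were tested, with a median log2 fold change of 0.03, 0 called at an adjusted p under 0.05, and 0 higher and 2 lower at an unadjusted p under 0.05. Over all tested genes 4.83% were higher and 5.56% lower at that p. The 2 lower cilium genes were *Hspb11*, the gene of the IFT-B subunit IFT25, at -0.25 (SE 0.076), and *Cby1*, whose protein acts at the ciliary base, at -0.17 (SE 0.067), each with adjusted p = 0.469 from edgeR. Their levels ran from 0.005 FPKM for *Nphp4* to 35.6 for *Pde6d*, which encodes the lipid-binding partner that *Arl3* unloads. Of the 14 listed Hedgehog core genes 9 were tested. *Smo*, the signal transducer, was the highest at 37.1 FPKM, and *Gli3* was at 0.00333 FPKM. *Gpr161*, which encodes the ciliary receptor that *Tulp3* delivers, had the smallest p in that list, with 0.59, 0.54 and 0.55 FPKM in vehicle and 0.71, 0.73 and 0.69 in Shh, a log2 fold change of 0.31 (SE 0.12, adjusted p = 0.469 from edgeR). The median of the 9 was 0.03. Of the 18 listed motile cilium genes 8 were tested, and most of the others had few counts. *Dnah5* was listed at 0 FPKM in all libraries, and *Hydin* was the highest at 4.40. *Ccdc39* was at 0.05, 0 and 0.06 FPKM in vehicle and 0.16, 0.22 and 0.21 in Shh, and it did not pass at the adjusted threshold (adjusted p = 0.469 from edgeR).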

How the data were processed

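RNA of Hepa 1-6 cells, 3 libraries per group, was sequenced by the authors from oligo(dT)-selected RNA. Estimated counts for each gene (36.4% of values above 0 not whole, tolerance 1e-06) were deposited by the authors beside FPKM values, which divide by transcript length and by the library's total. The submitters' processing notes name Bowtie2, while its version, the counter, its use of strand, the annotation and the genome build were not stated in the labels or the paper. A symbol with an antisense or overlapping partner may therefore share reads with it. The series' design text speaks of exosomes from mouse livers, and the sample labels, which name the cell line, were followed. A further 6 per-sample columns were not used, and no row lacked a gene name. The columns named control were taken as vehicle.

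The main test was edgeR's quasi-likelihood test (edgeR 4.0.16 in R 4.3.3) on rounded counts with group as the only term, TMM factors and an expression filter with minimum count 10 and minimum total 15, with Benjamini-Hochberg adjustment over the 12286 genes tested, at 0.05. DESeq2 1.42.0 was an alternative. The replicate block and leave-one-out fits used edgeR. FPKM served for levels between genes, and transcript lengths were recovered from counts and FPKM where the summed FPKM was at least 0.5. The fits were also run on simulated data with the same spread in both groups. In the real data the Shh libraries lay farther apart than the vehicle libraries, so that run does not show how the fits behave here. Depth was 20253781 to 20335463 counts per library.

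The members and lists were chosen with earlier results of these data known. Values per library are given for members whose groups did not overlap or with an unadjusted p under 0.05, for the smallest p per role and for members that failed the filter, with fold changes for a few more per role in order of p. For other lists at most 4 genes are named, by smallest p or at the ends of the levels, and the genes at low level or with an X-box among them were named after their values were seen. Symbols were matched through NCBI names and synonyms. *Shh*, *Ttc30a2*, *Rfx6*, *Dnai1*, *Spag6l* and *Clec4f* were on the lists but were matched to no row of the table, so no value is given for them. Promoters are from RefSeq (GRCm38.p6).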

Additional observations from a re-analysis of the deposited data

How the results depend on the processing

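The count of 0 genes at an adjusted p under 0.05 held in every fit but the one without Shh replicate 1 (1 gene, *Ift43*), a range of 0 to 1. The number higher at an unadjusted p under 0.05, 1 in the reported fit, was 0 with DESeq2, with the replicate block, with the length offset and with both together, and 0 to 3 without single libraries (0 without Shh replicate 3, vehicle replicate 1 or vehicle replicate 2, and 3 without Shh replicate 1). The number lower at that p was 0 with the length offset and 0 with the block and offset together, against 3 as reported, and 1 to 4 without single libraries (1 without Shh replicate 2 or vehicle replicate 1, and 4 without Shh replicate 1). Over the whole table the number at that p in either direction moved too, from 1277 of 12286 genes as reported. It was 706 of 12209 with the length offset and 810 of 12209 with the block as well. It was 2610 of 12391 without Shh replicate 1, 772 of 12453 without Shh replicate 2 and 609 of 12453 without vehicle replicate 1. The cause of these shifts was not tested. The median log2 fold change of -0.06 was -0.0331 with the stricter filter (5 CPM reached in 3 libraries or more), which leaves 28 of the 36 genes, -0.0400 with the length offset and -0.0398 with the block as well, and it ranged from -0.0657 to -0.0213 without single libraries (lowest without vehicle replicate 1, highest without vehicle replicate 2). *Arl3* turned to 0.0019 with the length offset and ranged from -0.1766 to 0.0105 without single libraries, and *Cep164* ranged from -0.0275 to 0.0011. Of 181 recomputed fold changes of 14 named genes, 177 kept their sign with an adjusted p above the threshold, and the others are those just given and *Ift43* without Shh replicate 1. Upper-quartile factors and no filter changed no count by more than 1.5 times. TMM counts per kilobase moved none of the 36 levels by more than 1 SD. The lengths used for this were recovered from the same FPKM values, so that outcome was fixed in advance and is no check on the levels. Same-numbered libraries did not deviate together (correlations of -0.04, -0.05 and 0.10), so the replicate block is given here alone; it changed no call at the adjusted threshold. The fit without counts was not needed. With 3 libraries per group and few counts, *Bbs1*, *Tmem231*, *Ift88* and the 4 genes near 0 are the least certain.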
